A study of Homo sapiens with 16 samples.

Results

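The combination of the PARP inhibitor PJ-34 with the DNA methyltransferase inhibitor 5-aza-dC in HCT116 cells was examined as an interaction, that is, whether the effect of PJ-34 on transcript levels was different when 5-aza-dC was present. HCT116 is an established human colon cancer cell line. The 8 arrays were 1 each for cells given all 3 drugs, PJ-34/5-aza-dC, 5-aza-dC/TSA, 5-aza-dC alone, PJ-34/TSA, PJ-34 alone, TSA alone and no drug (control), out of 16 arrays in the series, where the other 8 are of RKO cells and were not used here. PJ-34 was given at 3 µM, 5-aza-dC at 0.5 µM and the histone deacetylase inhibitor TSA at 150 nM, and RNA was taken on day 3. RNA was hybridized to Affymetrix arrays with 54675 probe sets, each reporting the transcripts of 1 gene or a few. Every condition is 1 culture on 1 array, so no condition has a replicate and the spread comes from the fit over all 8 arrays.

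For each probe set the log2 PJ-34 effect without 5-aza-dC (PJ-34 minus control, PJ-34/TSA minus TSA) was subtracted from the effect in its presence (PJ-34/5-aza-dC minus 5-aza-dC, all 3 drugs minus 5-aza-dC/TSA). A value of 1 means that the ratio of signal with PJ-34 to signal without it was 2 times as high when 5-aza-dC was present, and a negative value means that it was lower. Signals below 50 were set to 50, and 26816 of the 54675 probe sets, those at a signal of 250 or more in 2 or more of the 8 arrays, were kept. They cover 12040 genes through probe sets of a single gene symbol. The interaction can be computed once from the 4 arrays without TSA and once from the 4 arrays with TSA. These values share no array, and the interaction given here is their mean.

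PARP enzymes add ADP-ribose chains to proteins at DNA breaks and at chromatin, and PARP inhibitors slow the repair of single strand breaks. 5-aza-dC is built into replicating DNA, where it traps DNA methyltransferases. The methylation of CG sites is then lost as cells divide, silenced genes such as germline genes can be transcribed again, and the trapped enzymes are themselves a form of DNA damage. TSA blocks the removal of acetyl groups from histones. The comparison asks whether the transcripts of cells given both PJ-34 and 5-aza-dC differ from what the separate treatments give.

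Promoter sequences are shown for 3 genes the results turn on, because 5-aza-dC acts on CG sites. NKTR had one of the clearest lower values with the combination, RFC2 the smallest p of the DNA replication genes, and TKTL1 is a germline gene that was high in all 4 arrays with 5-aza-dC. The windows are from RefSeq (GRCh38.p14) and run 5′ to 3′ on the gene's strand from 250 bases before the start to 50 after it, with CG sites in capitals. That of NKTR lies at chr3:42600436-42600735 on the plus strand, that of RFC2 at chr7:74254350-74254649 on the minus strand and that of TKTL1 at chrX:154295545-154295844 on the plus strand.
NKTR: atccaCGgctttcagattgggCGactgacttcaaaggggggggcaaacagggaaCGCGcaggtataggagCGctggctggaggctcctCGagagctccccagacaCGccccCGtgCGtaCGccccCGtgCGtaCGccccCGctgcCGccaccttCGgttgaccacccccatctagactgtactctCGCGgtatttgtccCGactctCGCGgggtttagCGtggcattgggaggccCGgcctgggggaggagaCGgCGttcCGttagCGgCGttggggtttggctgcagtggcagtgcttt
RFC2: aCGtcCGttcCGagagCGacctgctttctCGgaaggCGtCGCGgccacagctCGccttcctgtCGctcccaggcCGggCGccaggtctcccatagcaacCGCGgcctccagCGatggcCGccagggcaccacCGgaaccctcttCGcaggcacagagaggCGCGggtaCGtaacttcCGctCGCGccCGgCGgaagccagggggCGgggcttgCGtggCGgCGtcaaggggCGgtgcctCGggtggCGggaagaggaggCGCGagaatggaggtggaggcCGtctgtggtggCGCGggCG
TKTL1: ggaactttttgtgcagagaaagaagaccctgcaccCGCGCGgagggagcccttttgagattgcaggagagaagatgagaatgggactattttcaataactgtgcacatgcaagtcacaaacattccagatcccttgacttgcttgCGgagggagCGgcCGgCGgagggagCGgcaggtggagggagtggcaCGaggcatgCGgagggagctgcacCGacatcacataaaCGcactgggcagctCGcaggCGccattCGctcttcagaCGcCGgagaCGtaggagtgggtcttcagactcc
NKTR has 28 CG sites, RFC2 39 and TKTL1 18 in these windows of 300 bases. Of 27305 RefSeq promoter windows, 25.95% have at least as many CG sites as NKTR, 8.48% as many as RFC2 and 44.5% as many as TKTL1.

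The arrays were checked before the comparison. On each of them the mean signal was the same after the authors' scaling, 21.9% to 26.5% of probe sets lay below 50, and the log2 signals of any pair of arrays correlated at 0.924 to 0.967. The colon epithelium markers EPCAM, KRT8, KRT18, KRT19, ESRP1 and CDH1 were at 5297 or more on every array, while VIL1 and CDX2 stayed at or below 253. Of the blood markers PTPRC, CD3E and LYZ did not exceed 208, and HBB and LAPTM5 reached 590 and 821. Among the fibroblast markers COL1A1 lay between 491 and 3518, and the other 5 did not exceed 253. The summed signal of the 8 colon markers was 262900 with PJ-34/5-aza-dC and 262300 with all 3 drugs, against 184100 to 240900 on the other 6 arrays. The RNA spiked in before labelling (24 probe sets of dap, lys, phe and thr) had a mean signal of 1290 with PJ-34/5-aza-dC, against 679 to 916 on the other 7 arrays, which gives it an interaction of 1.14 without TSA and 0.10 with TSA. The 3′ to 5′ ratio, a sign of RNA quality, was 0.834 to 0.902 for GAPDH and 1.42 to 1.61 for ACTB over the 8 arrays. The part of the spike-in and marker differences in the results below was not tested.

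No probe set passed the test of the interaction at an adjusted p under 0.05 (limma with Benjamini-Hochberg adjustment, 0% of 26816), and the smallest adjusted p was 0.188. At an unadjusted p under 0.05, 958 probe sets were higher and 1849 lower with the combination than the separate effects give. The median interaction was -0.02 over probe sets and 0.05 over genes. The median standard error of a probe set was 0.37 on the log2 scale. This fit leaves 3 degrees of freedom and counts any interaction with TSA as error. When the interactions of PJ-34 with TSA and of 5-aza-dC with TSA were fitted too, which leaves 1 degree of freedom per probe set and so borrows nearly all of the spread from other probe sets, 1049 passed, 222 higher and 827 lower. With the first fit 477 passed without the control array and 182 without the array of all 3 drugs, and none when any 1 of the other 6 was left out.

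The genes with the smallest p were chosen after their values were seen, since the naming rule picks genes of very low signal, which follow further on. They are ordered here by role, with proteins of RNA processing first, and no enrichment of a role was tested. In bulk RNA, fewer cells with a transcript and less of it per cell cannot be told apart. NKTR, a cyclophilin with arginine- and serine-rich repeats, had signals of 2580 with PJ-34/5-aza-dC and 2259 with all 3 drugs, against 6561 with 5-aza-dC and 4547 with 5-aza-dC/TSA. Without 5-aza-dC it had 6520 with PJ-34 and 4266 with PJ-34/TSA, against 6281 in the control and 3245 with TSA. Both arrays with PJ-34 and 5-aza-dC together were thus the lowest of the 8, and TSA alone came next. The interaction of NKTR was -1.40 ± 0.25 (SE), with -1.40 both without and with TSA. It missed the adjusted test (adjusted p = 0.188) and passed with the interactions with TSA as terms (adjusted p = 8.61e-07).

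LUC7L3, a splicing factor of the U1 particle, was at 3140 with PJ-34/5-aza-dC and 2766 with all 3 drugs, against 8070 with 5-aza-dC and 5399 with 5-aza-dC/TSA. In the absence of 5-aza-dC its signals were 8537 with PJ-34 and 5546 with PJ-34/TSA, against 8105 in the control and 3757 with TSA. The order of the arrays was that of NKTR at the low end, and the interaction was -1.48 ± 0.26. CCNL1, cyclin L1, which pairs with a kinase that acts on splicing, had 3283 with PJ-34/5-aza-dC and 2591 with all 3 drugs, against 7915 with 5-aza-dC and 4800 with 5-aza-dC/TSA. Cells without 5-aza-dC had 8349 with PJ-34 and 4946 with PJ-34/TSA, against 7873 in the control and 3392 with TSA. Again TSA alone was close to the combination, and the interaction was -1.39 ± 0.26.

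PNISR, a serine- and arginine-rich nuclear protein, had the smallest p of all lower genes. It measured 637 with PJ-34/5-aza-dC and 286 with all 3 drugs, against 1758 with 5-aza-dC and 1118 with 5-aza-dC/TSA. With PJ-34 alone it was at 1842 and with PJ-34/TSA at 1063, against 1152 in the control and 759 with TSA. Its interaction was -2.30 ± 0.33, and here PJ-34 went with higher signals in both pairs without 5-aza-dC and with lower ones in both pairs with it. Of its 6 probe sets this one had the largest value, while the brightest had -0.94 and the other 4 had -1.34, -1.33, -0.71 and -0.05. LARP7, which binds the 7SK RNA that holds back transcript elongation, was at 2858 with PJ-34/5-aza-dC and 1749 with all 3 drugs, against 5259 with 5-aza-dC and 3963 with 5-aza-dC/TSA, and its interaction was -1.37 ± 0.23. NOP58, a core protein of small nucleolar RNA particles, was at 9286 with PJ-34/5-aza-dC and 8756 with all 3 drugs, against 15346 with 5-aza-dC and 17348 with 5-aza-dC/TSA, with an interaction of -1.03 ± 0.18.

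Other genes among the 15 with the smallest p in this direction have different roles. They include RB1CC1, which starts autophagy (-1.28 ± 0.23), IL6ST, the shared receptor chain of the interleukin 6 family (-1.35 ± 0.23), TANK, a regulator of NF-kB signalling (-1.02 ± 0.18), KTN1, a membrane protein that binds kinesin (-1.39 ± 0.25), GOLIM4 of the Golgi membrane (-1.50 ± 0.27) and QNG1, which releases the base queuine (-1.44 ± 0.27). KIAA1143 (-1.36 ± 0.22) and CCDC186 (-2.21 ± 0.39) belong to them as well. All 15 had an adjusted p of 0.188 to 0.208 in the first fit, and all 15 passed with the interactions with TSA as terms. Both fits give the same estimate from the same arrays, and these genes were chosen by their p. Passing the second fit is thus no independent check, which holds for the higher genes below as well.

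**Figure D1:**
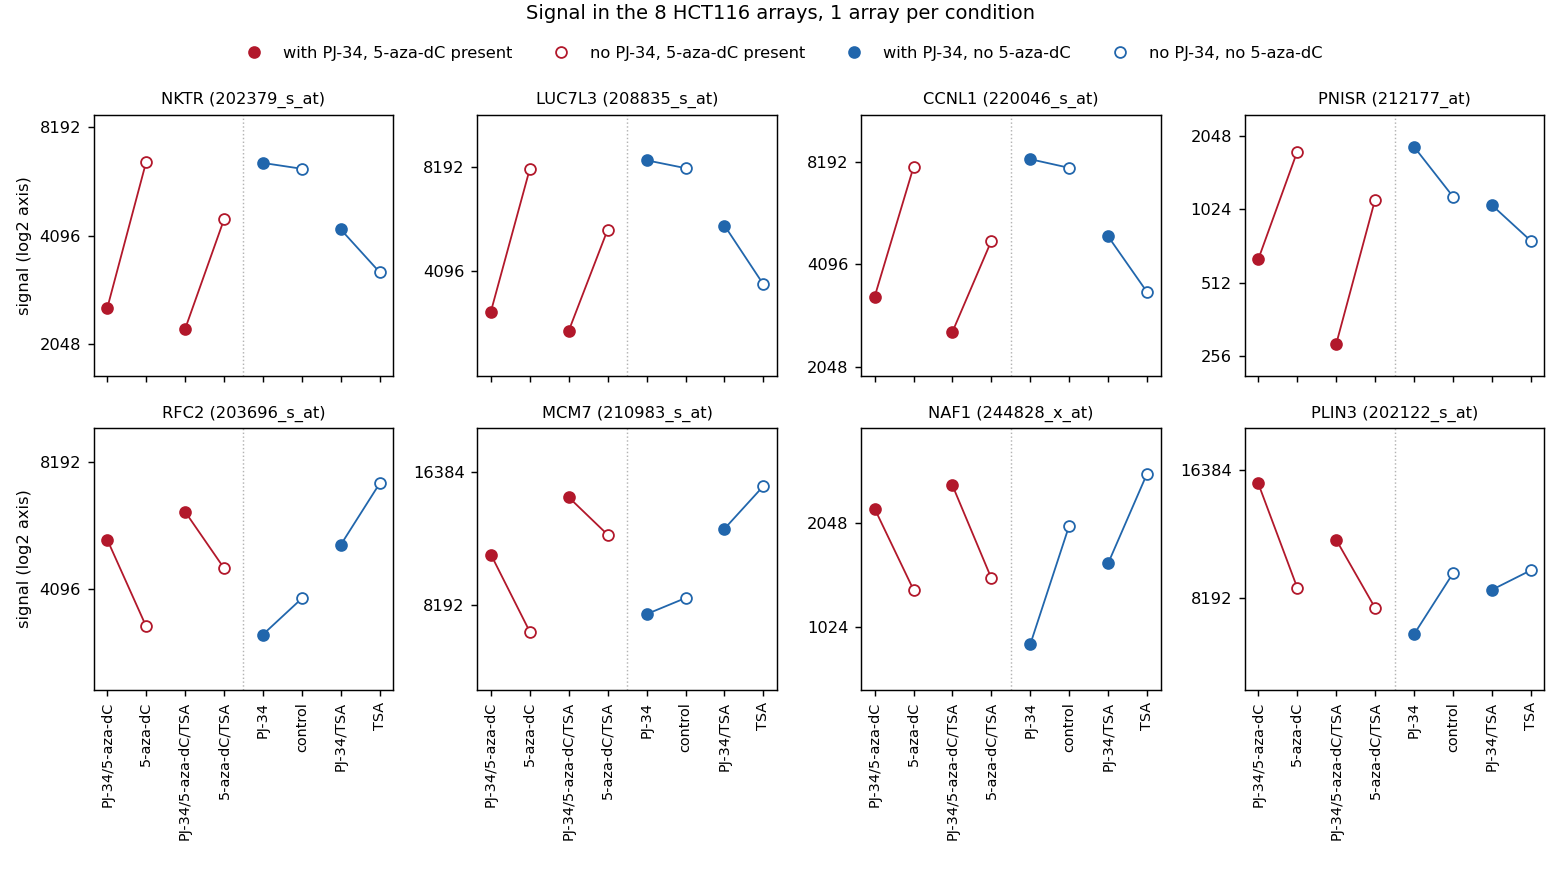
Signal (log2 axis) of 8 genes in the 8 HCT116 arrays, 1 point per array, with each array that held PJ-34 (filled) joined to its match without PJ-34 (open), in the presence (red) and absence (blue) of 5-aza-dC. In the upper row the filled red points, such as 2580 and 2259 for NKTR, are the lowest of the panel, and in the lower row the red and blue lines slope opposite ways.

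Different probe sets of a gene did not always go the same way. Over the 15 genes, 42 further probe sets were tested and 34 of them also had a negative interaction. All 6 probe sets of LUC7L3 and all 5 of NKTR were negative, as were all 3 of CCNL1. CD44, a receptor for hyaluronan, was on the list through 1 probe set, whose interaction was -1.48 ± 0.27, while the 10 other CD44 probe sets ran from -0.05 to 0.48. KIAA1143 had -1.36 in 1 probe set and -0.13 in the other.

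Genes with a positive interaction follow, which need not mean that the signal was highest with both drugs. NAF1, an assembly factor of H/ACA RNA particles, had 2251 with PJ-34/5-aza-dC and 2625 with all 3 drugs, against 1314 with 5-aza-dC and 1418 with 5-aza-dC/TSA. Without 5-aza-dC the order turned round, with 916 for PJ-34 and 1567 for PJ-34/TSA, against 2012 in the control and 2838 with TSA. Its interaction was 1.83 ± 0.28 (adjusted p = 0.188, and 8.61e-07 with the interactions with TSA as terms). PLIN3, a coat protein of lipid droplets, was at 15247 with PJ-34/5-aza-dC and 11231 with all 3 drugs, against 8654 with 5-aza-dC and 7751 with 5-aza-dC/TSA. For cells without 5-aza-dC the values were 6710 with PJ-34 and 8548 with PJ-34/TSA, against 9347 in the control and 9508 with TSA. The interaction of PLIN3 was 0.99 ± 0.24, and its signal with both drugs was the highest on the arrays without and with TSA alike. FSCN1, which bundles actin, had an interaction of 1.01 ± 0.23, and the phospholipase PLCG2 0.95 ± 0.22. SETD1B, a histone H3 methyltransferase, had 1.10 ± 0.23. Its signals of 2170 with PJ-34/5-aza-dC and 2428 with all 3 drugs were below the 3055 of the control and the 3644 with TSA. The PJ-34 effect on SETD1B was 0.34 with 5-aza-dC and -0.76 without it. CDIPT, which makes phosphatidylinositol, had 0.96 ± 0.23 and HEBP1, which binds heme, 0.87 ± 0.21. TSC2, a brake on mTOR signalling, had 1.32 ± 0.32 and TMEM222 1.08 ± 0.26. HLA-G, whose probe sets can report other HLA transcripts, had 0.97 ± 0.22 in the one listed, 0.24 in its brightest and 0.65 and 0.73 in the other two, and the dim genes NKPD1 and CCDC13 complete the 15. ATP5F1D (2.02 ± 0.32), RPS9 (1.14 ± 0.23) and MRPS18B (0.89 ± 0.19), parts of the ATP synthase and of the cytosolic and mitochondrial ribosome, were each on the list through their dimmer probe set. Their brighter probe sets had 0.22, 0.23 and 0.32.

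The probe sets that passed with the interactions with TSA as terms shared a pattern over the arrays. The 827 lower ones had a median log2 signal relative to the control of -0.90 with PJ-34/5-aza-dC and -1.13 with all 3 drugs, against -0.08 with 5-aza-dC and -0.41 with 5-aza-dC/TSA. Without 5-aza-dC it was -0.01 with PJ-34 and -0.42 with PJ-34/TSA, against -0.90 with TSA, the control being 0. These probe sets were thus about as low with TSA alone as with PJ-34/5-aza-dC, and lay between these and the control when TSA was joined by either single drug. The 222 higher ones had 0.39 with PJ-34/5-aza-dC and 0.40 with all 3 drugs, against -0.22 with 5-aza-dC and -0.05 with 5-aza-dC/TSA. In the absence of 5-aza-dC they had -0.17 with PJ-34 and -0.02 with PJ-34/TSA, against 0.43 with TSA. As these probe sets were chosen by their interaction, the pattern describes them and is not a test. In the interaction the TSA array counts the same way as that of all 3 drugs, and opposite to PJ-34/TSA and 5-aza-dC/TSA. The place of TSA alone beside the combination is thus in part built into the choice, also for the genes with the smallest p. Over all 26816 probe sets the medians lay between -0.07 and 0.01.

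**Figure D2:**
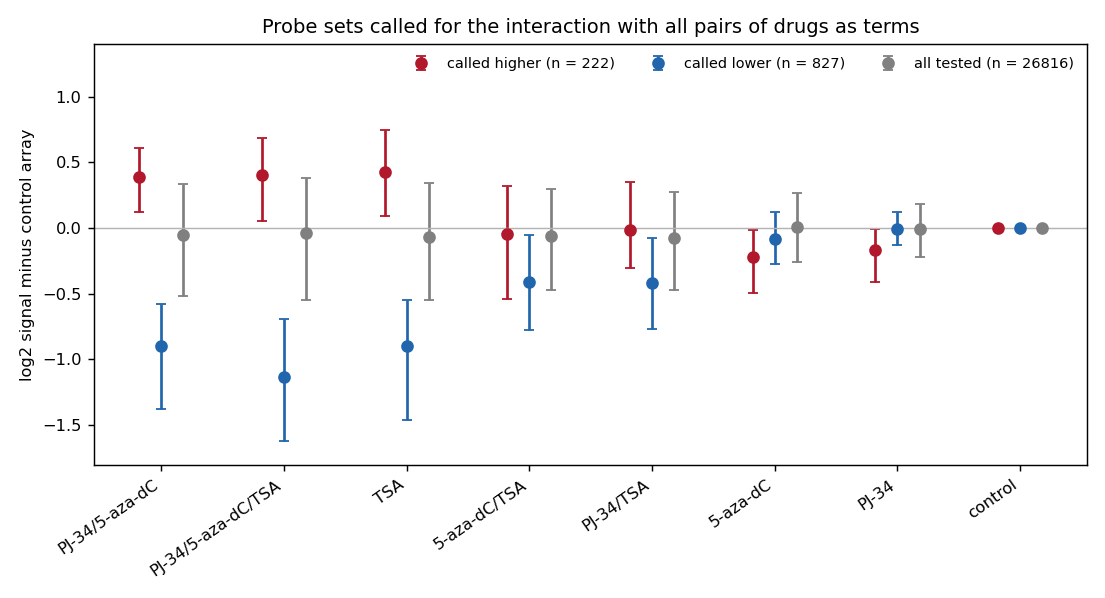
Median log2 signal minus the control array (points, with bars over the middle 50% of probe sets) for the 222 probe sets called higher, the 827 called lower and all 26816 tested, by array. The lower ones sit at -0.90 with PJ-34/5-aza-dC, -1.13 with all 3 drugs and -0.90 with TSA, and between -0.42 and -0.01 on the other treated arrays.

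The values without and with TSA, which share no array, were set side by side as a check of the interaction. Their correlation across all 26816 probe sets was 0.14. It was 0.05 for the 4435 probe sets at a mean log2 signal under 8 (a signal of 256), 0.11 from 8 to 9, 0.28 from 9 to 10, 0.37 from 10 to 11, 0.50 from 11 to 12 and 0.56 for the 4537 at 12 or more. These are descriptions across probe sets, which share the same arrays and are not independent. In the dimmest class 52.1% of probe sets had the same sign in both, and in the brightest 71.2%. The typical size of the interaction went the other way, with a median of 0.92 without TSA and 0.93 with TSA in the dimmest class, and 0.22 and 0.28 in the brightest.

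An interaction of 1 or more in both, the same way, was seen in 278 probe sets that were higher (1.04% of those tested) and 730 that were lower (2.72%). A further 649 passed this size in opposite ways. Below a mean log2 signal of 8 the same-way counts were 202 higher and 331 lower, beside 485 opposite. From 10 on they were 8 higher and 108 lower, beside 8 opposite.

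**Figure D3:**
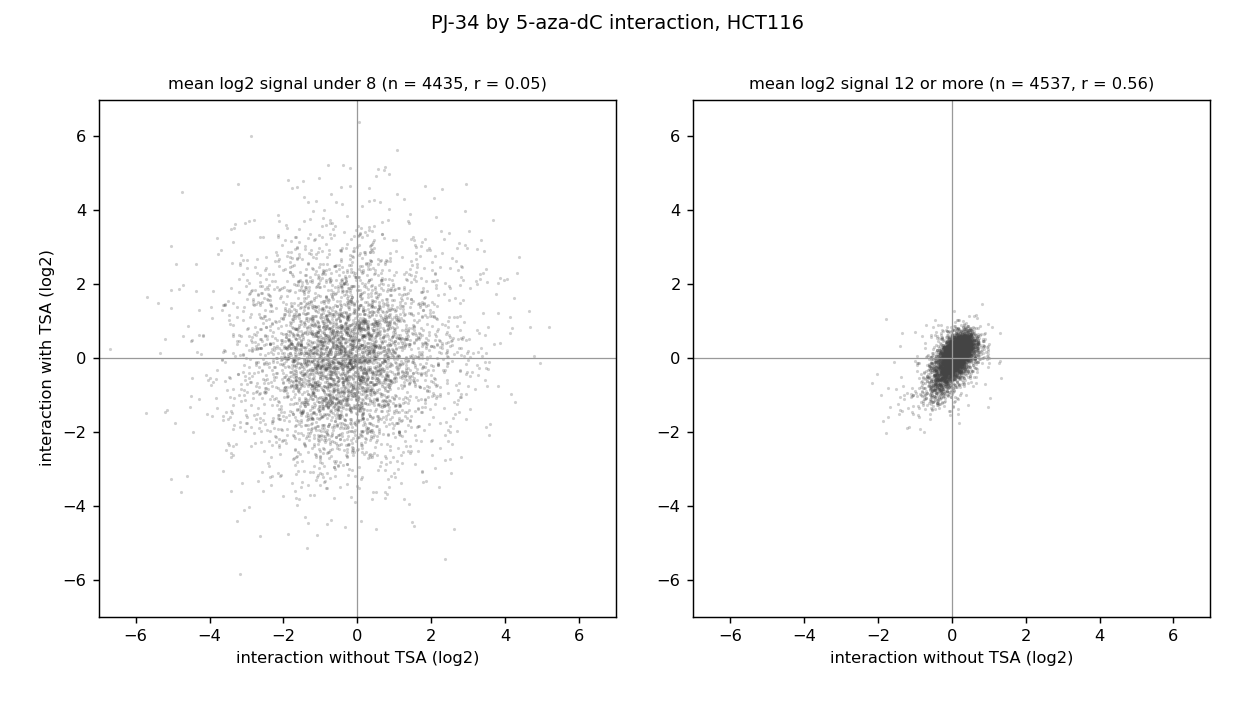
Interaction with TSA (vertical, log2) against interaction without TSA (horizontal, log2), 1 point per probe set, for 4435 probe sets at a mean log2 signal under 8 and 4537 at 12 or more. The dim probe sets scatter in all directions (r = 0.05), and the bright ones lie along the diagonal with smaller values (r = 0.56).

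By the naming rule, the genes with the largest value that held without and with TSA were named next. None had passed the adjusted test, so all 24 were filled in from those at an unadjusted p under 0.05, and their adjusted p ran from 0.236 to 0.456. All were dim, with no signal above 713, and 28 of their 192 signals were below 50. The 12 higher ones, with interactions of 2.55 to 3.82 and standard errors of 0.82 to 1.30, were TBXA2R, CCDC13, A1CF, NOL4L, LYNX1, SLC11A1, SLC6A3, NKPD1, CLEC11A, LCN15, FOXP4 and MVK. The 12 lower ones, from -4.52 to -2.83 with standard errors of 0.87 to 1.53, were TM6SF2, TRIM2, VIPR2, KIF5C, NUMA1, GNAO1, CACNA1I, TRMT13, PBX2, ASMTL-AS1, DPP9 and RPL18. CCDC13 had 320 with PJ-34/5-aza-dC and 303 with all 3 drugs, against 225 with 5-aza-dC and 205 with 5-aza-dC/TSA. Its signals without 5-aza-dC were 30 with PJ-34 and 60 with PJ-34/TSA, against 357 in the control and 371 with TSA, so that the value turns on 2 dim signals. GNAO1, a G protein subunit, had 142 with PJ-34/5-aza-dC and 115 with all 3 drugs, against 478 with 5-aza-dC and 200 with 5-aza-dC/TSA. It had 409 with PJ-34 and 713 with PJ-34/TSA, against 164 in the control and 71 with TSA. Of further probe sets of these genes, 9 of 16 went the same way in the higher group and 10 of 14 in the lower. RPL18, a ribosomal protein, had -2.99 in the dim probe set and 0.11 in its brightest, and NUMA1, a spindle protein, -4.52 in the dim and 0.01 in the brightest.

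The size of the PJ-34 effect itself was compared as a description. Its median over probe sets was 0.26 with 5-aza-dC and 0.16 without it on the log2 scale. With 5-aza-dC 333 probe sets were higher and 1078 lower by 1 or more, and without it 388 were higher and 487 lower. No probe set passed the adjusted test with 5-aza-dC (0%, smallest adjusted p 0.051, 1435 higher and 2303 lower at an unadjusted p under 0.05) or without it (0%, smallest adjusted p 1, 335 higher and 360 lower at an unadjusted p under 0.05). Without the control array 318 passed with 5-aza-dC, without the TSA array 387 and without that of all 3 drugs 459. The difference between the effects is the interaction, whose test stands above.

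Gene lists were compared by their counts and medians, each gene taken once by its brightest probe set, with no test of a list as a whole. No list gene passed the adjusted test. Over all 12040 genes 4.78% were higher and 6.59% lower at an unadjusted p under 0.05, and 1.05% were higher and 3.06% lower with the interactions with TSA as terms. A share of 35.1% was higher both without and with TSA, and 27.6% was lower in both. The lists were chosen with earlier results of these data known.

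Of 48 DNA replication genes 10 were higher and 0 lower at an unadjusted p under 0.05, and 9 were higher with the interactions with TSA as terms. The median interaction was 0.32, with 0.34 without TSA and 0.31 with it, beside 0.05 over all genes. When each array was left out in turn it ran from 0.14 (PJ-34/5-aza-dC array left out) to 0.50 (control array left out). It was 0.15 with the array of TSA alone left out. Higher in both were 32 genes and lower in both 3. RFC2, a subunit of the clamp loader, had 5357 with PJ-34/5-aza-dC and 6237 with all 3 drugs, against 3336 with 5-aza-dC and 4584 with 5-aza-dC/TSA. Its values without 5-aza-dC were 3191 with PJ-34 and 5207 with PJ-34/TSA, against 3886 in the control and 7281 with TSA, an interaction of 0.95 ± 0.24. PJ-34 went with more RFC2 signal in both pairs with 5-aza-dC and with less in both pairs without it. MCM7, of the replicative helicase, had 10643 with PJ-34/5-aza-dC and 14332 with all 3 drugs, against 7122 with 5-aza-dC and 11796 with 5-aza-dC/TSA. Without 5-aza-dC it was at 7808 with PJ-34 and 12171 with PJ-34/TSA, against 8489 in the control and 15196 with TSA. The interaction was 0.65 ± 0.19 for MCM7 and 0.69 ± 0.22 for POLD2, a subunit of DNA polymerase delta, and neither passed the adjusted test (adjusted p = 0.323 and 0.355).

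The repair lists are given with the ranges of their medians when each array was left out. Base excision and strand break repair, the pathway in which PARP1 acts, had a median of 0.21 (0.15 to 0.36), with 3 of 22 genes higher and 0 lower at an unadjusted p under 0.05. These were the flap endonuclease FEN1 (0.61 ± 0.21), which is also on the replication list, and the glycosylases MUTYH (0.67 ± 0.27) and UNG (0.52 ± 0.24). Homologous recombination and Fanconi genes had a median of -0.25 (-0.31 to -0.03, the value nearest 0 without 5-aza-dC/TSA), with 1 of 27 higher and 3 lower, and 3 lower with the interactions with TSA as terms. RAD50, of the complex that senses double strand breaks, had 1314 with PJ-34/5-aza-dC and 1014 with all 3 drugs, against 2862 with 5-aza-dC and 1981 with 5-aza-dC/TSA. It was at 2814 with PJ-34 and 2156 with PJ-34/TSA, against 2873 in the control and 1644 with TSA, an interaction of -1.23 ± 0.25 (adjusted p = 0.211). The kinase ATM had -1.45 ± 0.36, and FANCL, a ubiquitin ligase of the Fanconi pathway, -0.73 ± 0.25.

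Lists of the mitochondrial respiratory chain and of antigen presentation had positive medians made up of small values. For the respiratory chain the median was 0.25 (0.14 after quantile normalization), and 27 of 36 genes were higher both without and with TSA against 2 lower. With 1 array left out this median ran from 0.07 (TSA alone) to 0.42 (control), beside 0.05 over all genes with all 8 arrays. The complex I subunit NDUFV1 had 0.63 ± 0.20 and the complex III subunit CYC1 0.52 ± 0.19, whereas another complex I subunit, NDUFB3, had -0.71 ± 0.18. For antigen presentation the median was 0.31, and 12 of 14 genes were higher in both, but none at an unadjusted p under 0.05. HLA-F had 0.33 ± 0.19, HLA-E 0.36 ± 0.22 and the chaperone CALR 0.40 ± 0.26, and probe sets of the HLA genes can report each other's transcripts. The hypoxia and glycolysis list had a median of 0.22 (0.09 with the PJ-34/TSA array left out), with the glycolytic enzymes GPI at 0.63 ± 0.19 and TPI1 at 0.54 ± 0.20. Ribosomal protein genes had a median of 0.06, with -0.10 without TSA and 0.19 with it. Short bright genes as a whole had a median of 0.23, as given below, and the part of gene length and brightness in these lists was not tested.

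Further lists are given with their leading genes. Mitosis genes had a median of 0.01, with 4 of 35 higher and 5 lower at an unadjusted p under 0.05. CENPF, a kinetochore protein, had -0.96 ± 0.21, the kinase CDK1 -0.78 ± 0.20 and ASPM, of the spindle pole, -0.94 ± 0.28. CDK1 was at 12933 with PJ-34/5-aza-dC and 11046 with all 3 drugs, against 19091 with 5-aza-dC and 21106 with 5-aza-dC/TSA, and at 19634 with PJ-34 and 17368 with PJ-34/TSA, against 20881 in the control and 15583 with TSA. Splicing factor genes had a median of -0.02 (-0.15 after quantile normalization), with 1 of 29 higher and 5 lower, among them the kinases CLK1 (-1.35 ± 0.37) and PRP4K (-0.64 ± 0.23). Among apoptosis regulators, 2 of 25 higher and 4 lower, the p53-induced PMAIP1 had -0.84 ± 0.22 and the inhibitors XIAP and BIRC2 -0.72 ± 0.24 and -0.64 ± 0.22. The ribonucleotide reductase subunit RRM2B had -0.88 ± 0.21, the tankyrase TNKS2, a PARP family member, -1.09 ± 0.32, STARD4 and IDI1 of sterol transport and synthesis -1.18 ± 0.27 and -0.78 ± 0.21, the matrix protein CCN2 -1.53 ± 0.39 and the tight junction protein CLDN4 0.87 ± 0.32. Genes methylated in colorectal cancer had a median of 0.26, while 0 of 18 were higher and 4 lower at an unadjusted p under 0.05. Leaving out 1 array moved this median to -0.11 (array of TSA alone) or -0.04 (array of PJ-34/5-aza-dC). The DNA methylation machinery had a median of -0.16, with 0 of 15 higher and 2 lower. Interferon-stimulated genes had a median of 0.08 and p53 targets of -0.08. Of the lists with fewer genes, 12 colon epithelium markers had a median of 0.31 and 7 blood-lineage markers of 0.585 (-0.21 with the array of PJ-34 alone left out).

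**Figure D4:**
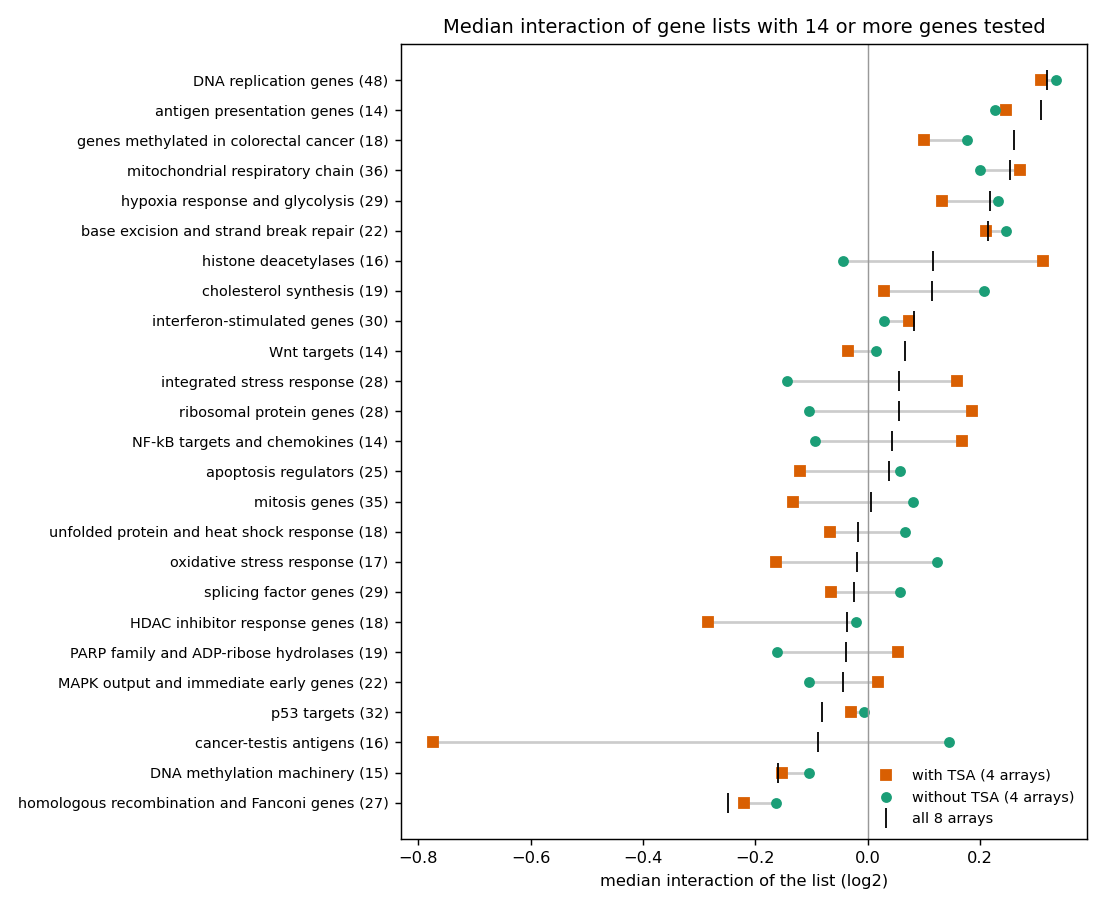
Median interaction (log2) of the gene lists with 14 or more genes tested, from the 4 arrays without TSA (circles), the 4 arrays with TSA (squares) and all 8 (bars), with the number of genes tested in brackets. DNA replication genes are at 0.34 without TSA and 0.31 with it, homologous recombination and Fanconi genes at -0.16 and -0.22, and cancer-testis antigens at 0.15 and -0.77.

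Germline genes that 5-aza-dC reactivates were of interest, since they report the loss of DNA methylation. TKTL1, a transketolase-like gene, had 27676 with PJ-34/5-aza-dC and 1479 with all 3 drugs, against 28199 with 5-aza-dC and 5595 with 5-aza-dC/TSA. On the arrays without 5-aza-dC it was at 116 with PJ-34 and 37 with PJ-34/TSA, against 41 in the control and 47 with TSA, so its signal was high on the 4 arrays labelled with 5-aza-dC and on no other. Beside 5-aza-dC alone the signals with and without PJ-34 were close, and when TSA was present too the signal with PJ-34 was the lower one. The value without TSA, -1.23, rests on the 116 with PJ-34, set against a control raised to the floor of 50. The interaction was -1.58 ± 0.94 and missed the adjusted test (adjusted p = 0.56), and passed with the interactions with TSA as terms (adjusted p = 0.00599). The value turned on single arrays. With 1 array left out, the interaction of TKTL1 was -0.055 (all 3 drugs) and -0.28 (control), but -2.87 (TSA alone) and -3.10 (PJ-34/5-aza-dC). MAGEA4, named after its values were seen, had 4147 with PJ-34/5-aza-dC and 973 with all 3 drugs, against 3321 with 5-aza-dC and 1680 with 5-aza-dC/TSA, while it stayed at or below 100 on the other 4 arrays. Its interaction, 1.27 without TSA and -1.48 with TSA, rests in part on those dim signals, which were 20 with PJ-34 (raised to the floor of 50) and 100 with PJ-34/TSA, against 97 in the control and 62 with TSA. Of the 16 cancer-testis antigens tested, 0 were past an unadjusted p of 0.05, with a median of 0.15 without TSA and -0.77 with TSA. The 3 with the smallest p were LAGE3 (0.34 ± 0.23), MAGEA1 (-0.91 ± 0.76) and MAGEA11 (-1.29 ± 1.09). The 9 germline and meiosis genes tested had a median of -0.64, and TEX14 and STAG3 were at -1.22 ± 0.77 and -0.64 ± 0.93. With 1 array left out in turn, this median ran from -1.40 (array of TSA alone) to 0.36 (PJ-34/TSA), and was 0.26 for the array of all 3 drugs.

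Silent genes were also followed over all 54675 probe sets. Of 12936 probe sets below 50 in the control, 221 reached 250 or more with PJ-34/5-aza-dC, 308 with 5-aza-dC and 146 with PJ-34. Of 12697 below 50 with TSA, 178 reached it with all 3 drugs, 150 with 5-aza-dC/TSA and 83 with PJ-34/TSA. Reaching 250 with both drugs while staying below 50 with either was seen in 11 probe sets without TSA and in 8 with TSA, and none was in both groups. The opposite, reaching 250 with 5-aza-dC only and lost with both drugs, was more frequent. It was seen in 62 probe sets without TSA and in 22 with TSA, and again none was in both groups. For comparison, 24 probe sets reached 250 after 5-aza-dC both without TSA (7.79% of 308) and with it (16% of 150). After both drugs 14 did so (6.3% of 221 and 7.9% of 178). These larger groups set no condition on the other arrays, and with shares this low, groups of 11 and 8 are too small to compare. The share of all probe sets below 50 also differed between arrays. It was 21.9% with 5-aza-dC and 24.9% with PJ-34/5-aza-dC, but 25.4% with 5-aza-dC/TSA and 24.4% with all 3 drugs. Its part in these counts was not tested.

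The drug targets had small values. The interaction was 0.26 ± 0.25 for PARP1, 0.08 ± 0.19 for PARP2, 0.20 ± 0.17 for the maintenance methyltransferase DNMT1, -0.14 ± 0.52 for DNMT3A and 0.03 ± 0.25 for DNMT3B. The histone deacetylases HDAC1, HDAC2 and HDAC3 had 0.31 ± 0.20, 0.01 ± 0.17 and 0.34 ± 0.21. DNMT1 lay between 8800 and 10572 on all 8 arrays. The lowest adjusted p of the 8 was 0.582. Of 11 genes that the study names, 5 were tested, with 0.38 ± 0.20 for the adhesion protein CDH1, 0.27 ± 0.21 for CDKN2A, -0.13 ± 0.21 for RANBP9, -0.32 ± 0.38 for SOCS3 and 0.63 ± 0.85 for UCHL1. UCHL1 had 2442 with PJ-34/5-aza-dC and 456 with all 3 drugs, against 2239 with 5-aza-dC and 1056 with 5-aza-dC/TSA, and did not exceed 134 on the other arrays. PDGFD, SFRP4, CDX2 and LOX did not pass the filter and never exceeded 223, SFRP1 did not pass it either and never exceeded 284, and GAGE5 had no probe set of its own. The study named CDH1, UCHL1, CDX2, LOX, GAGE5 and a gene printed as SHRP1, taken here as SFRP1, for RKO cells. The RKO arrays were not used here, so these values do not bear on what the study reports for them. It picked some of the other genes from the same arrays, so they are no independent evidence.

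Gene span, the distance from start to end of a gene in RefSeq, was compared with the interaction because it played no part in the choice of genes. The 127 genes higher with the interactions with TSA as terms had a median span of 12.8 kb and the 369 lower ones 54.9 kb, beside 29.3 kb over all genes tested. The 7132 genes with a span and a mean log2 signal of 10 or more were split by span into 5 groups of near equal size. The median interaction was 0.23 in the shortest genes (median 5.27 kb), then 0.12, 0.07 and -0.03, and -0.09 in the longest genes (median 140 kb). Of the shortest genes 49 were higher and 19 lower with the interactions with TSA as terms, and of the longest 8 were higher and 105 lower. The order of the groups was the same without TSA, with 0.19 for the shortest and -0.06 for the longest, and with TSA, with 0.26 and -0.10. Spearman's correlation across these genes was -0.29, given as a description, since genes on 1 set of arrays are not independent. With 5-aza-dC the median PJ-34 effect was 0.21 in the shortest genes and -0.04 in the longest, and without it -0.01 and 0.04. TSA alone against the control followed span too, with 0.27 in the shortest genes and -0.18 in the longest. Both of these arrays also enter the interaction, so this is not a separate observation. The shortest genes were also brighter, at a median signal of 4099 against 2745 in the longest, and the part of brightness in this was not tested.

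**Figure D5:**
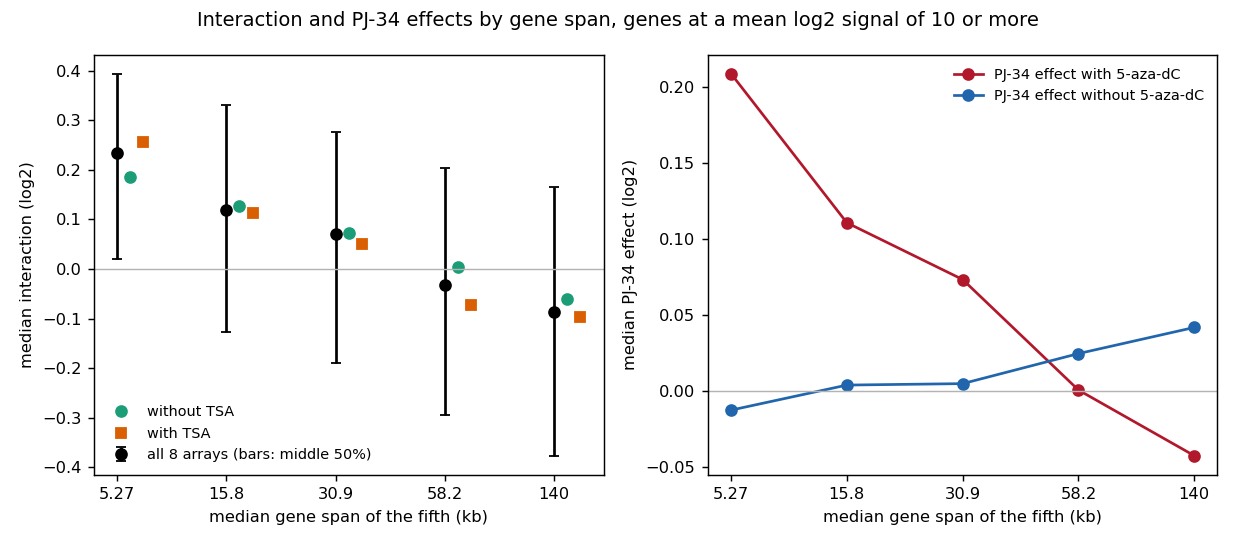
Left, median interaction (log2) in 5 groups of gene span for genes at a mean log2 signal of 10 or more, from all 8 arrays (black, bars over the middle 50% of genes), without TSA (circles) and with TSA (squares). Right, the median PJ-34 effect (log2) with 5-aza-dC, 0.21 in the shortest genes and -0.04 in the longest, and without 5-aza-dC, -0.01 and 0.04.

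The number of CG sites in the promoter did not go with the interaction in the same way. Genes higher with the interactions with TSA as terms had a median of 27 CG sites in the window and lower ones 27, beside 26 over the 9828 tested genes with a promoter window. Spearman's correlation across genes was 0.02.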

How the data were processed

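RNA of HCT116 cells under 8 conditions, 1 array each, was measured. The deposited intensities are 1 signal per probe set, made by the authors from the scans with GCOS (per the submitters' processing notes, with no version), and scaled so that the mean of each array without the outer 2% is 1000. Saturation and probe-level detection were not analysed here. Signals below 50 were set to 50 and log2 values were taken. Probe sets at 250 or more in 2 or more of the 8 arrays entered limma 3.58.1 in R 4.3.3, with terms for PJ-34, 5-aza-dC, their interaction and TSA, a variance trend on mean signal, and Benjamini-Hochberg adjustment over all 26816 probe sets. The steps were tested on simulated data. Of these probe sets 22437 have 1 gene symbol in the platform annotation, 1108 several and 3271 none. A gene is counted once, by its brightest probe set.

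Genes were named by rule. Per direction these were the 12 with the largest value shared without and with TSA among those past the adjusted test, filled up from those at an unadjusted p under 0.05, then up to 3 of each gene list by smallest p, the drug targets and genes named by the study. The members, lists and rule were chosen with earlier results of these data known. The alternatives were a floor of 20 or 100, a filter of 100 in 4 arrays or none, quantile normalization, all pairs of drugs as terms, no variance trend, and leaving out each array. With 8 arrays the number of arrays limits the precision. Fold changes of probe sets near the floor are understated.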

Additional observations from a re-analysis of the deposited data

Results flagged for a closer look

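The 66 probe sets listed here were taken from those of 103 named genes because they met a sign pattern. Their PJ-34 effect had the same sign in both pairs of arrays with 5-aza-dC and the opposite sign in both pairs without it. The difference between the effects was tested as the interaction and missed the adjusted threshold in all 66 (limma). Over all 26816 probe sets this sign pattern was met by 2243 that were higher and 2420 that were lower with the combination. Many of the 66 were named for a large interaction or a small p, which favours opposite signs. Their number is thus no separate evidence. All 15 higher and all 15 lower genes with the smallest p met the pattern. Some of the signs rest on very small values. On the arrays without 5-aza-dC and TSA, the PJ-34 effect was 0.0028 for KTN1, 0.014 for RB1CC1 and 0.025 for NUMA1. The log2 interaction of each of the 66 is given in brackets.

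Among the dim genes named by rule, the values with a higher PJ-34 effect beside 5-aza-dC were TBXA2R (3.70), CCDC13 (3.27), A1CF (3.22), LYNX1 (3.08), SLC11A1 (3.82), SLC6A3 (2.99), NKPD1 (3.56), CLEC11A (2.64), LCN15 (2.94), FOXP4 (2.95) and MVK (2.55). Those with a lower one were TM6SF2 (-4.20), TRIM2 (-3.52), VIPR2 (-3.84), KIF5C (-3.90), NUMA1 (-4.52), GNAO1 (-3.60), CACNA1I (-3.48), TRMT13 (-3.04), ASMTL-AS1 (-3.73), DPP9 (-2.83) and RPL18 (-2.99).

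Of the genes with the smallest p, the higher ones were NAF1 (1.83), ATP5F1D (2.02), RPS9 (1.14), SETD1B (1.10), MRPS18B (0.89), FSCN1 (1.01), PLCG2 (0.95), HEBP1 (0.87), PLIN3 (0.99), HLA-G (0.97), TMEM222 (1.08), CDIPT (0.96) and TSC2 (1.32). The lower ones were PNISR (-2.30), KIAA1143 (-1.36), LARP7 (-1.37), IL6ST (-1.35), CCDC186 (-2.21), NKTR (-1.40), LUC7L3 (-1.48), RB1CC1 (-1.28), NOP58 (-1.03), TANK (-1.02), CD44 (-1.48), KTN1 (-1.39), GOLIM4 (-1.50), CCNL1 (-1.39) and QNG1 (-1.44).

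Of the gene list members, RFC2 (0.95), MCM7 (0.65), POLD2 (0.69), MUTYH (0.67), HLA-F (0.33), TPI1 (0.54) and CLDN4 (0.87) were higher. Lower were CENPF (-0.96), NDUFB3 (-0.71), CLK1 (-1.35), PRP4K (-0.64), RRM2B (-0.88), IDI1 (-0.78), PMAIP1 (-0.84), XIAP (-0.72) and CCN2 (-1.53).

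The RNA spiked in before labelling, which no comparison of the report uses, had a mean signal of 1290 on the PJ-34/5-aza-dC array, above the 825 of the control array and above every other array. Its part in the results was not tested.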

How the results depend on the processing

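No paired analysis was possible because the conditions share only 1 replicate number, with 1 array each. The matching of arrays on TSA is part of the design and is a term of the fit. The count of 0 probe sets past the adjusted test of the interaction held under a floor of 20 or 100, both filters, quantile normalization and no variance trend. It was 1049 with all pairs of drugs as terms, and 0 to 477 when an array was left out, 477 without the control and 182 without all 3 drugs. For the PJ-34 effect with 5-aza-dC the count was 32 with a floor of 100, 26 with a filter of 100 in 4 arrays, 1955 with all pairs of drugs as terms, and 0 to 459 when an array was left out. For the effect without 5-aza-dC it was 30 with all pairs of drugs as terms. Gene list members past the adjusted test numbered 41 with all pairs of drugs as terms, each gene counted once. Over all 12040 genes 1.05% were higher and 3.06% lower in that fit, so the 41 are no result about the lists. The cause of the differences between settings was not tested.

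With a filter of 100 in 4 arrays, which keeps more dim probe sets, an interaction of 1 or more the same way without and with TSA was seen in 798 higher and 1231 lower probe sets, beside 1860 opposite. With no filter there were 1447 higher and 1764 lower, beside 3150 opposite.

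Of 1543 values of 103 named genes under the alternatives, 1522 kept their direction. The filters, all pairs of drugs as terms and the fit without a variance trend cannot change the estimate of a probe set. Many of these genes were also picked for a large value or a small p, so the count is no independent check. The exceptions were in 10 genes, all of them drug targets, genes named by the study or MAGE genes. When each array was left out in turn, PARP1 ran from -0.036 (without TSA) to 0.56 (without the control), PARP2 from -0.014 (without 5-aza-dC/TSA) to 0.18, DNMT3A from -0.59 to 0.31 (without 5-aza-dC), DNMT3B from -0.021 (without all 3 drugs) to 0.077, HDAC2 from -0.061 (without the control) to 0.073 and RANBP9 from -0.36 to 0.10 (without TSA). Over the same alternatives UCHL1 ran from -0.48 (without PJ-34/5-aza-dC) to 1.75, MAGEA1 from -1.98 to 0.15 (without all 3 drugs), MAGEA11 from -2.63 to 0.064 (without PJ-34/TSA) and MAGEA4 from -1.22 to 1.02 (without PJ-34/TSA). Quantile normalization put HDAC2 at -0.060, a floor of 100 put UCHL1 at -0.33 and a floor of 20 put MAGEA4 at 0.54.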
